A study of Drosophila melanogaster with 51 samples.

Results

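The change of gene expression with larval age was followed in Drosophila melanogaster larvae that carry csn51, which the series counts among the mutants of the COP9 signalosome subunits CSN4 and CSN5 and which by its name is an allele of CSN5. The comparison takes the log2 ratio of csn51 over wild type at 96 h after egg deposition and subtracts the same ratio at 60 h. The arrays were chosen by genotype and age alone, 5 at 96 h and 4 at 60 h, so 9 of the 51 arrays of the series, and every gene on them was used. Of 6187 features, each a gene or an entry without a gene name, 5931 had a value on at least 2 arrays of each age and could be tested.

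Cullin proteins organise many of the ligases that attach ubiquitin to other proteins, and they are switched on when the small protein Nedd8 is joined to them. The COP9 signalosome takes Nedd8 off again, with CSN5 as its catalytic subunit. The complex thereby tunes how long many regulatory proteins last in a cell. A Drosophila larva grows in mass through its moults, which are timed by pulses of the steroid ecdysone, and growing tissues need a large output of ribosomes. The fat body and midgut feed that growth.

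Each array compared total RNA of whole csn51 larvae with RNA of wild-type larvae, written w118 in the labels, of equal age and in the other dye. The mutant RNA carried Cy3 on replicates 1 and 2 and Cy5 on the others, at 60 h as at 96 h. Arrays of csn51 at 72 h (n = 4), and of csn53 and csn4null, served for comparisons that place the change. At 60 and 96 h these held 10 csn53 and 7 csn4null arrays. All 51 arrays of the series, csn5null included, were also in the fit. They thus share in the spread and dye term behind each SE and p-value. The wild-type channel of csn51 replicates 1, 2 and 3 at 60 h has the same replicate number, 1, in the labels. These arrays may thus share wild-type RNA. A ratio moves with age when the mutant, the wild type or both change, and these cannot be told apart. In RNA of whole larvae, fewer cells of a type and less RNA per cell cannot be told apart either. The labels do not say how csn51 alters the protein, and whether mutant and wild type of an age had reached the same stage was not measured.

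The 60 h arrays held 6327 to 6558 entries with a value and the 96 h arrays 5854 to 6137. The SD of the log2 ratios on an array lay between 0.544 and 0.858 at 60 h and between 0.858 and 0.950 at 96 h. Replicate 1 at 96 h stood apart from its group, with correlations across features of 0.469 to 0.659 with the other 4 arrays. The median correlation of each of those 4 with its group was between 0.738 and 0.819. The direction of the deposited ratios is not stated, and the signs here are the likely ones. If they were wrong, every rise below would be a fall. They rest on CSN4, which after turning stood at -2.39 and -2.19 in csn4null at 60 and 96 h, and on CSN5 in csn5null. The logarithm was taken to base 2, which the sources do not give.

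Many genes changed against wild type with age, in both directions. Of the 5931 features tested, 1019 rose and 1225 fell between 60 and 96 h (limma, Benjamini-Hochberg adjusted p under 0.05), which is 17.2% and 20.7% of all tested and 37.8% in both directions. The median change of all features was -0.06 on the log2 scale. Among those that rose the median change was 0.81, and 375 rose by more than 1. Among those that fell it was -0.65. Without replicate 1 at 96 h, 970 rose and 1189 fell. In a fit to the 9 csn51 arrays of these ages alone, with no dye term, 797 rose and 874 fell. With only the Cy3 arrays of the mutant 1016 rose and 1117 fell, and with only the Cy5 arrays 406 rose and 496 fell. Of the named genes, 13 lost their call with scaled arrays and 29 with only the Cy5 arrays. The first were neo, SkpA, woc, PGRP-LE, Gclm, nbs, hay, ND-15, ATPsynO, nrv2, Gad1, mia and Mst98Ca. The second included EcR, Spn100A, TP53INP, alien, Cul3, Cul4, Cdc45, Amy-p, Atg8a and PGRP-LA.

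**Figure D1:**
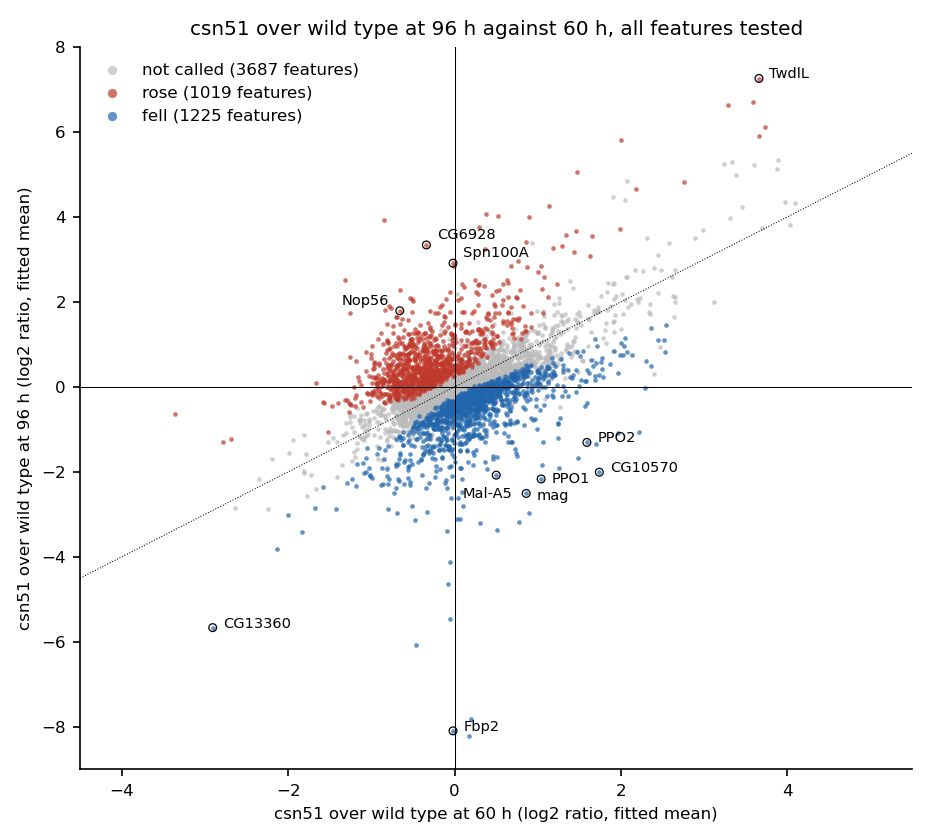
Fitted mean log2 ratio of csn51 over wild type at 96 h (vertical axis) against 60 h (horizontal axis), 1 point per feature, with the dotted line marking no change with age. Red points rose (1019), blue points fell (1225) and grey points did not pass the test (3687); TwdlL lies at the top right and Fbp2 at -8.10 on the 96 h axis and near 0 on the 60 h axis.

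Of the 1019 that rose, 329 were not called against wild type at 60 h and were above it at 96 h. A further 257 passed from below wild type to above it, and 291 from below wild type to a level not called different. Of the 1225 that fell, 538 were not called at 60 h and were below wild type at 96 h, 320 went from above wild type to not called, and 131 from above to below. Over both directions, 1328 of the 2244 called features were further from wild type at 96 h than at 60 h, and 916 were nearer. These features were chosen for their change, and no such count was made over all features. The ratios were also spread more widely on the 96 h arrays, as given above. At 60 h alone 2904 of 6186 features (46.9%) differed from wild type, 24.1% above it and 22.9% below. At 96 h 3267 of 5931 (55.1%) did, 27.0% above and 28.1% below. The values of the 2 ages did not overlap, in the direction of the call, for 1542 of the 2244 called features. For all features tested the share without overlap, in either direction, was 29.9%. The called features were chosen for a difference between these same arrays. A larger share among them is thus built in and is not read as a result.

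The genes with the largest rises included several that act in the nucleolus. They are ranked among named genes that passed the test, with a value on all 9 arrays and no overlap between the ages. TwdlL, a Tweedle protein of the cuticle, stood at 5.17, 4.59, 0.98 and 3.88 on the 60 h arrays and at 7.13, 6.11, 6.94, 9.04 and 6.98 on the 96 h arrays. It was thus already far above wild type at 60 h and higher still at 96 h, by 3.60 ± 0.63 (SE, adjusted p = 1.49e-05). Nop56, a core protein of box C/D small nucleolar ribonucleoproteins, stood at -0.93, -0.77, -0.54 and -0.41 at 60 h and at 2.39, 1.77, 1.70, 1.25 and 1.89 at 96 h. All 60 h arrays were below wild type and all 96 h arrays above it, a change of 2.45 ± 0.31 (adjusted p = 3.53e-08). The helicase gene ais, which acts in ribosome production, went from -1.09, -0.90, -0.57 and -0.29 to 0.94, 1.59, 2.86, 1.08 and 1.85, a change of 2.36 ± 0.32 (adjusted p = 1.90e-07).

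Nop60B, Polr1C and Mybbp1A likewise lay below wild type on every 60 h array and above it on every 96 h array. Nop60B, the pseudouridine synthase of box H/ACA particles, rose by 2.26 ± 0.30, from a mean of -0.51 ± 0.22 (SD, n = 4) to 1.76 ± 0.38 (n = 5). Polr1C, a subunit that RNA polymerases I and III share, rose by 2.17 ± 0.31, from -0.74 ± 0.33 to 1.45 ± 0.59. The nucleolar protein gene Mybbp1A rose by 2.15 ± 0.36, from -0.89 ± 0.30 to 1.26 ± 0.49. PolrMT, the mitochondrial RNA polymerase, started at wild-type level, at -0.06 ± 0.16, and reached 2.23 ± 1.20, with its 96 h arrays spread from 0.83 to 3.43. CG5953 and CG1785 rose by 2.28 ± 0.26 and 2.14 ± 0.25. All of these had adjusted p-values of 7.72e-06 or less in the limma fit.

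Other large rises varied more among arrays. Spn100A, a serpin gene, rose by 2.92 ± 0.69 (adjusted p = 0.000739), with 60 h arrays between -0.84 and 1.37 and 96 h arrays between 1.65 and 3.56. The gene neo, which codes for a zona pellucida domain protein of the apical surface of epidermal cells, rose by 2.16 ± 0.67 (adjusted p = 0.00961), from between -0.83 and 0.88 to between 1.18 and 2.41. Ccdc85 owed its place to a single array. It stood at 9.81 on replicate 1 at 96 h and between 0.22 and 1.02 on the other 4, and its change of 2.32 ± 0.86 dropped to 0.44 without that array. Its call was lost without replicate 1, 2 or 4 at 60 h, with values of 2.26, 2.23 and 2.35.

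Fbp2, which codes for a protein of the late larval fat body, had the largest fall among features with a gene name. An entry without a name had the largest of all, -8.40. Fbp2 stood at 0.02, -0.06, -0.13 and 0.08 on the 60 h arrays, at wild-type level, and at -6.76, -8.68, -8.14, -8.38 and -8.20 on the 96 h arrays. The change was -8.08 ± 0.90 (adjusted p = 6.22e-09), and the 72 h arrays fell into a pair near 0 (0.01 and -0.25) and a pair at -4.29 and -4.38. Prophenoloxidase genes PPO1 and PPO2, whose enzymes make melanin in the haemolymph, were among the largest falls too. PPO1 went from 0.86, 1.5, 1.04 and 0.76 to -1.91, -2.15, -2.71, -1.61 and -2.47, a change of -3.21 ± 0.28 (adjusted p = 1.19e-11). PPO2 went from 1.48, 1.95, 1.48 and 1.43 to -1.56, -1.30, -1.46, -0.65 and -1.56, a change of -2.89 ± 0.25 (adjusted p = 1.40e-11). Every array showed both genes above wild type at 60 h and below it at 96 h.

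The remaining large falls included genes of digestion, lysosomes and stress. The intestinal lipase gene mag fell by 3.37, from between -0.20 and 1.84 to between -3.05 and -2.19 (adjusted p = 3.53e-08). Mal-A5, a maltase gene, stood at 0.49, 0.63, 0.36 and 0.51 at 60 h and at -2.20, -2.12, -1.94, -1.87 and -2.24 at 96 h, a change of -2.58 ± 0.21 (adjusted p = 6.23e-12) with little spread within either age. CtsK2, a cathepsin gene by its name, was below wild type at 60 h already, at -0.48 ± 0.23, and reached -3.12 ± 0.33. Aduk, a kinase related to the autophagy kinase Atg1, fell by 3.17, from 1.25 ± 0.68 to -1.93 ± 0.88. TP53INP, whose mammalian relatives are targets of p53 and act in autophagy, fell by 3.06, from 1.96 ± 1.15 to -1.13 ± 0.45. CG6839 and CG10570 changed by -3.96 and -3.75, and CG11912 and CG18180 by -3.05 and -2.57. By the rule that ranked them, none of these genes had an array of 96 h within the range of 60 h.

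**Figure D2:**
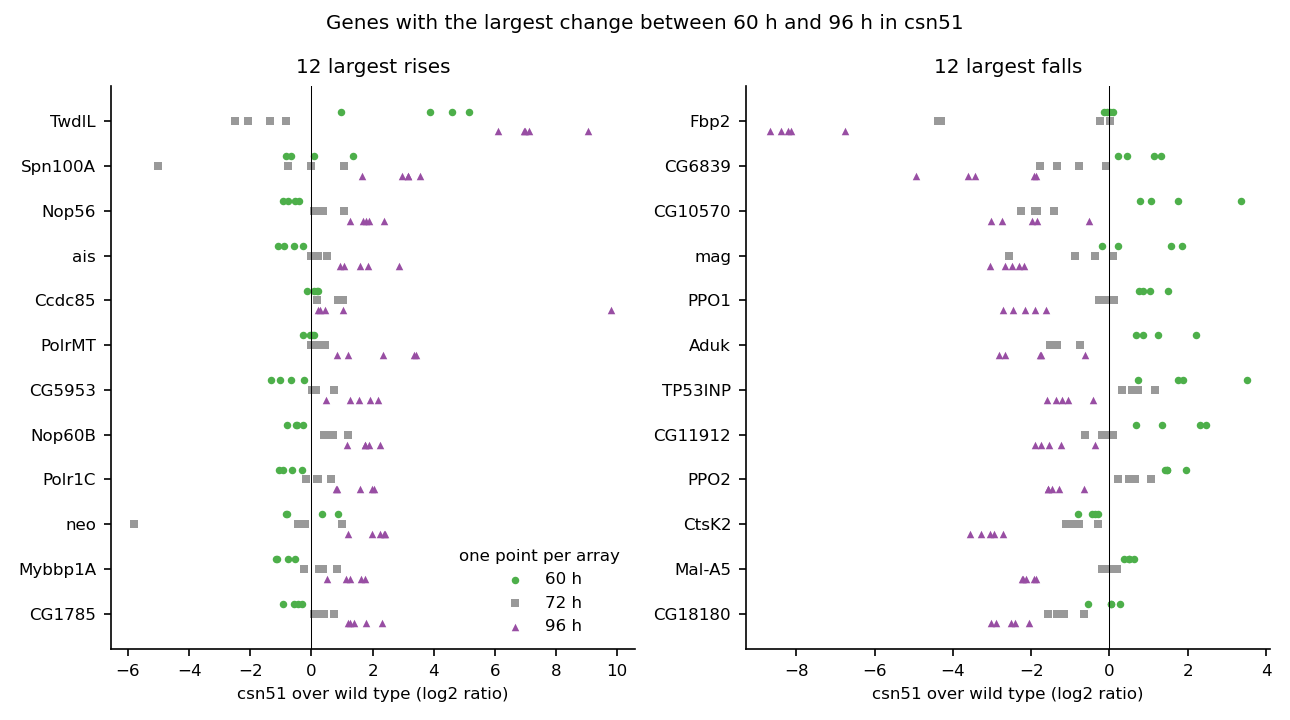
Log2 ratio of csn51 over wild type (horizontal axis) on every array of 60 h (green circles), 72 h (grey squares) and 96 h (purple triangles) for the genes with the largest rises (left) and falls (right). The 60 h and 96 h points do not overlap for any gene, and Ccdc85 has 1 array at 9.81 with the others between 0.22 and 1.02.

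Of the complex itself, 1 of 5 measured genes passed the test, against 37.8% of all features. CSN5 stood at -0.66, -0.42, -0.38 and -0.42 at 60 h and at -0.15, -0.14, -0.33, -0.43 and -0.22 at 96 h. Its 2 ages overlapped, and the change of 0.18 ± 0.44 did not pass the test (adjusted p = 0.786). CSN5 was also not called different from wild type at either age, with adjusted p-values of 0.252 and 0.426, although all 9 arrays lay below 0. The SD of its arrays was 0.13 at each age, and the SE of its fitted ratio, whose spread is pooled over all groups of the series, was 0.33 at 60 h and 0.30 at 96 h. CSN4 changed by 0.22 ± 0.20 (adjusted p = 0.404). Of 5 measured subunit genes 1 rose, alien, which codes for subunit CSN2, by 0.46 ± 0.12 (adjusted p = 0.00288). Its 96 h arrays were at -0.27, -0.25, -0.36 and -0.27 with replicate 1 at 0.35. Its 2 array entries gave 0.65 and 0.26.

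Cullins are the substrates of the complex, and among 12 measured genes of cullins, Nedd8 and their partners 1 rose and 2 fell. The shares over all features were 17.2% and 20.7%. Cul4 went from -0.36, -0.42, -0.18 and -0.22 to -0.01, 0.23, 0.10, 0.13 and 0.14, a rise of 0.42 ± 0.10 (adjusted p = 0.000873), and its ages did not overlap. Cul3 fell by 0.47 and SkpA, the adaptor of Cul1 ligases, by 0.40. Cul3 lost its excess over wild type, from 0.52 ± 0.11 to 0.04 ± 0.24, whereas SkpA went below wild type, from -0.14 ± 0.07 to -0.54 ± 0.22. Keap1, a substrate adaptor of Cul3, had a change of 0.45 that did not pass the test. None of 16 genes of the 26S proteasome, which degrades ubiquitinated proteins, passed the limma test, with 2 at an unadjusted p under 0.05. Their median change was 0.10, and 12 of them were below wild type at 60 h and 12 at 96 h.

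Most measured genes for making ribosomes rose. They were grouped after their values had been seen, so their counts describe the data and no more. Of 28 measured nucleolar and rRNA processing genes 23 rose and 0 fell, with a median change of 1.48. The median ratio of these genes on each array was -0.65, -0.52, -0.39 and -0.22 at 60 h and 0.76, 1.02, 1.17, 0.75 and 1.04 at 96 h. It was thus below wild type on every 60 h array and above it on every 96 h array, with 72 h arrays between them at 0.03 to 0.58. Gene by gene, 13 of the 28 were called below wild type and 4 above it at 60 h, and 0 below and 24 above at 96 h. U3-55K, a protein of the U3 small nucleolar ribonucleoprotein, rose by 2.65 ± 0.46 (adjusted p = 1.33e-05) with values on 3 of the 96 h arrays. Surf6 and wcd each rose by 2.05, and Nopp140, a nucleolar phosphoprotein, rose by 1.88. Fib, the methyltransferase fibrillarin, gave 0.03 ± 0.28 and did not pass the test.

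RNA polymerase I transcribes the large ribosomal RNAs, and 6 of 9 genes of this enzyme and its initiation factors rose. At 60 h 2 of the 9 were called below wild type. Polr1A, its largest subunit, went from -0.42, -0.37, -0.35 and -0.04 to 1.32, 1.79, 1.33, 1.05 and 1.57, a rise of 1.70 ± 0.21 (adjusted p = 2.52e-08). Polr1B rose by 1.58 and Polr1E by 1.94. Polr1E was the only gene of the 9 called above wild type at 60 h, at 0.87, and had values on 3 of the 96 h arrays. The initiation factor gene Tif-IA rose by 1.02, and TAF1B, with a change of 0.30, did not pass the test. For RNA polymerase III, which makes transfer RNAs and 5S RNA, 4 of 5 genes rose, from Polr3B at 0.45 to Polr3C at 1.23. Without replicate 1 at 96 h, 23 of the 28 nucleolar genes, 7 of the 9 RNA polymerase I genes and 4 of the 5 RNA polymerase III genes rose.

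Mitochondrial ribosomal proteins, which translate the few messages of the mitochondrial genome, all rose among the 19 measured, against 17.2% of all features. Their changes lay between 0.66 for mRpL12 and 1.36 for mRpL19, with a median of 0.98, and for all 19 genes the 60 h and 96 h arrays did not overlap. mRpL19 stood at -0.71, -0.53, -0.58 and -0.57 at 60 h and at 0.52, 0.78, 0.65, 0.79 and 1.05 at 96 h (change 1.36 ± 0.14, adjusted p = 4.89e-10). mRpS30 was the lowest at 60 h, at -0.93 ± 0.12, and reached 0.28 ± 0.17, a rise of 1.20 ± 0.14. mRpS31 rose by 1.18 ± 0.13. At 60 h 18 of these 19 genes were below wild type, and at 96 h 16 were above it. Between 60 and 72 h none of the 19 passed the test, and between 72 and 96 h all 19 rose.

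No rise was called among genes of mitochondrial energy supply. Of 17 genes of the respiratory chain and ATP synthase, encoded in the nucleus and working in the same organelle, 0 rose and 5 fell. Among all features 17.2% rose and 20.7% fell. The median change of the 17 was -0.10. ATPsynF fell by 0.48 ± 0.10 (adjusted p = 0.00031), from between -0.41 and -0.23 to between -0.91 and -0.52. ATPsynO and ND-15, a subunit of complex I, fell by 0.44 and 0.40. Both of these calls were lost with scaled arrays (-0.28 and -0.25), and all 3 with only the Cy5 arrays, and the falls in the list ranged from 0 to 5 over the alternatives. Of these 17 genes 9 were below wild type at 96 h and 0 above it. The 5 measured genes of cytoplasmic ribosomal proteins, out of 92 in the list, gave 0 calls in the limma fit, with 0 at an unadjusted p under 0.05, and a median change of 0.09.

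Translation factors and transfer RNA synthetases rose in 24 of 39 cases and fell in 1, against 17.2% and 20.7% of all features. The rises in the list ranged from 8 to 30 over the alternatives. The median ratio of the list lay between -0.45 and -0.33 on the 60 h arrays and between 0.01 and 0.24 on the 96 h arrays. eIF6, a factor of large subunit assembly, rose by 1.72 ± 0.22 (adjusted p = 5.72e-08) and was above wild type at both ages, from 0.45 ± 0.17 to 2.16 ± 0.24. The synthetase genes beta-PheRS and CysRS rose by 0.84 and 0.80. Both began below wild type, at -0.71 ± 0.05 and -0.99 ± 0.11, and CysRS at 96 h was still at -0.19 ± 0.21. The cap-binding protein gene eIF4E3 fell by 1.99, measured on 2 arrays at 60 h and 4 at 96 h.

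Genes of chaperones, which help other proteins fold, rose more often than they fell. Of 19 heat shock and chaperone genes 11 rose and 1 fell, against 17.2% and 20.7% of all features. The median ratio of the list was between -0.72 and -0.54 on the 60 h arrays and between 0.19 and 0.54 on the 96 h arrays. Those of mitochondria had the largest rises of the list. Trap1 stood at -0.60, -0.52, -0.51 and -0.39 at 60 h and at 1.03, 1.27, 1.04, 0.90 and 0.78 at 96 h (change 1.5 ± 0.14, adjusted p = 1.41e-10). Hsc70-5 and Hsp60A, the mitochondrial Hsp70 and Hsp60, rose by 1.55 ± 0.19 and 1.52 ± 0.22. Among subunits of the cytosolic chaperonin, which folds actin and tubulin, CCT2 rose by 1.34 ± 0.14 and CCT8 by 1.16 ± 0.13, and CCT3, CCT5, CCT6 and CCT7 rose by between 0.87 and 1.01. The small heat shock gene Hsp27 fell by 1.05. Gp93, the chaperone of the endoplasmic reticulum, was at -1.14 and -1.19 at the 2 ages and did not pass the test.

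**Figure D3:**
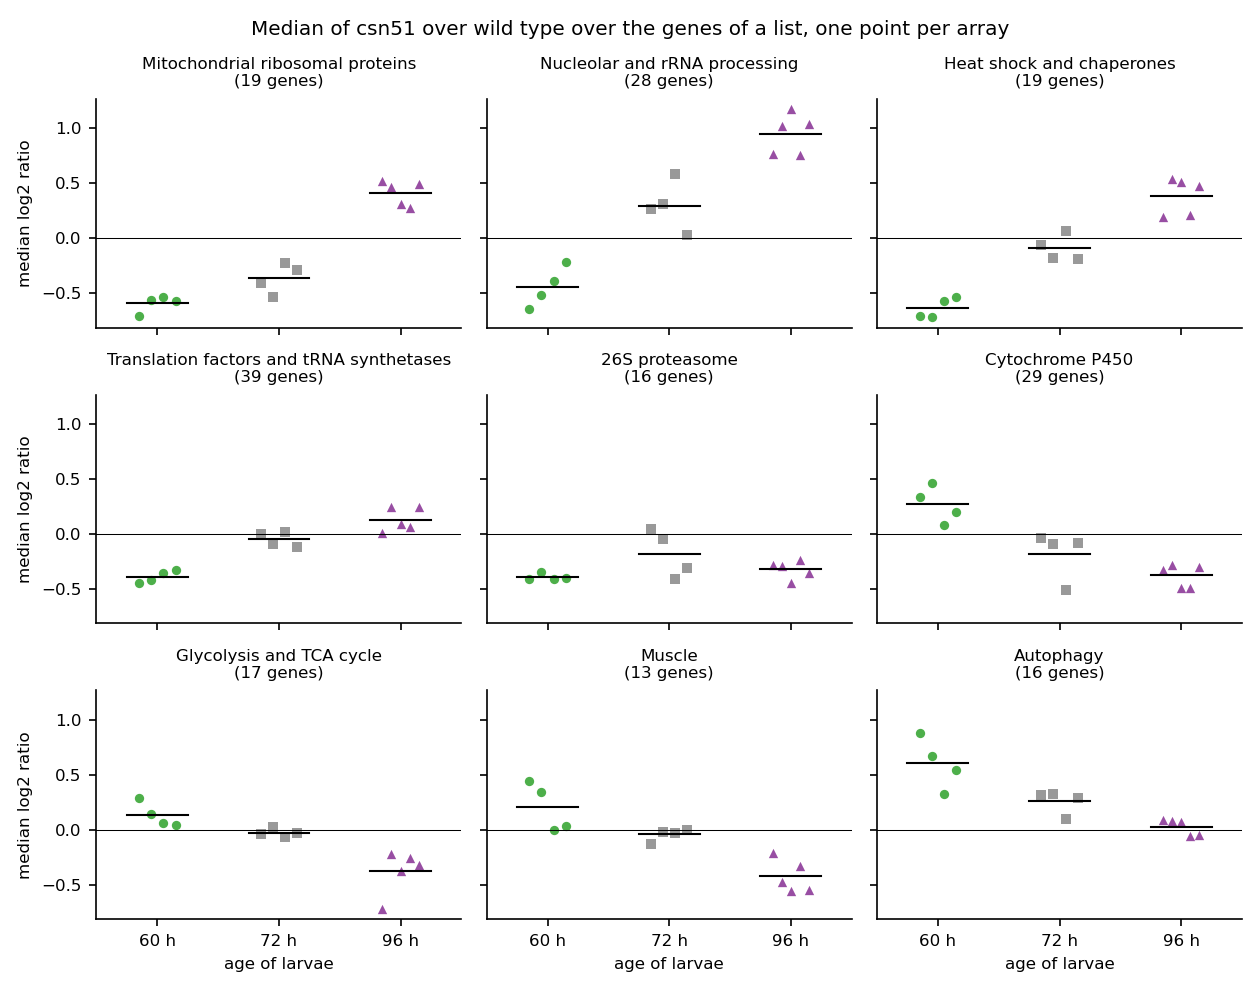
Median log2 ratio of csn51 over wild type over the genes of a list (vertical axis), 1 point per array at 60, 72 and 96 h, with the bar marking the mean of the arrays. Medians of nucleolar genes rose from between -0.65 and -0.22 at 60 h to between 0.75 and 1.17 at 96 h, while those of cytochrome P450 genes went from between 0.08 and 0.46 to between -0.49 and -0.28, and those of the proteasome overlapped.

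Cuticle genes moved in both directions. Of 13 measured cuticle protein genes 3 rose and 4 fell, against 17.2% and 20.7% of all features. At 60 h 10 were above wild type and at 96 h 7. Besides TwdlL, the chitin-binding protein genes Cpr50Cb and Cpr73D rose, by 2.02 and 1.10. Cpr50Cb had values on 3 arrays at 60 h and 2 at 96 h. Cpr57A fell by 0.97 ± 0.21, from 1.03 ± 0.48 to 0.05 ± 0.06, so it reached wild-type level. TwdlW and TwdlF were high at both ages, with fitted ratios of 3.38 and 3.24 at 60 h and 5.00 and 5.24 at 96 h, and their changes did not pass the test (adjusted p = 0.230 and 0.186). The list median of 0.12 turned negative without replicate 3, 4 or 5 at 96 h, to -0.35, -0.40 and -0.89. The 72 h arrays were not between the 2 ages. The list median there was -0.97 to -0.31, and TwdlL stood between -2.49 and -0.83.

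Chitin, the polysaccharide of the cuticle, is made by a synthase and turned over by chitinases at each moult, and of 18 such genes 2 rose and 10 fell. The shares over all features were 17.2% and 20.7%, and over the alternatives the falls ranged from 2 to 12. Idgf6, of the chitinase-like growth factor family, went from 1.00, 0.94, 0.23 and 0.27 to -1.06, -0.91, -1.09, -0.69 and -0.82, a change of -1.52 ± 0.18 (adjusted p = 2.00e-08). Idgf5 fell by 0.94 and the chitin synthase gene kkv by 1.14. Both were above wild type at 60 h and below it in the fitted mean at 96 h. The chitinase gene Cht5 moved the other way, from 1.46 ± 0.84 to 3.67 ± 1.08 (n = 4 at each age), a rise of 2.21 ± 0.44 (adjusted p = 0.000113). Cht10 rose by 1.74 and Cht9 fell by 2.12.

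Genes of the ecdysone response moved both ways, 5 up and 3 down of 14, against 17.2% and 20.7% of all features. EcR, the ecdysone receptor, stood at 1.45, 1.09, 0.50 and 0.62 at 60 h and at -0.97, -0.68, -1.03, -0.05 and -1.08 at 96 h, a change of -1.66 ± 0.28 (adjusted p = 8.26e-06). All 60 h arrays were above wild type and all 96 h arrays below it. Its partner receptor usp fell by 0.36. The early gene br fell by 1.24 ± 0.12 as the mean of 3 array entries, which disagreed in size, at -2.95, -0.56 and -0.19. Hr3, a receptor gene induced by ecdysone, rose by 1.64 ± 0.35, from 60 h arrays at -0.34 to 0.91 to 96 h arrays at 1.02 to 3.10. The ecdysone-inducible genes ImpL1 and ImpE2 rose by 3.80 and 3.57, with values on 2 and 3 of the 96 h arrays. Cth rose by 1.03. Of 2 genes listed under ecdysteroid synthesis, woc rose by 0.35 and ecd gave -0.01. The call of woc was lost without any of 6 of the 9 arrays (0.29 to 0.35).

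The 3 measured prophenoloxidase genes fell from above wild type to below it, and other melanization genes fell by less. Of 11 genes of haemocytes and melanization 7 fell and 2 rose, against 20.7% and 17.2% of all features. The list median was between 0.34 and 0.86 on the 60 h arrays and between -0.56 and 0.04 on the 96 h arrays. PPO3, a prophenoloxidase of lamellocytes, went from 1.18, 1.38, 0.92 and 0.76 to -1.09, -1.37, -1.56, -0.76 and -1.76, a change of -2.36 ± 0.27 (adjusted p = 7.45e-09). The proteases Sp7 and Hayan, which act in the melanization cascade, fell by 0.77 and 0.75. SPE, the protease that activates the Toll ligand, fell by 1.18. Basement membrane genes in the same list rose, Col4a1 by 0.84 and Ppn by 0.55, and srp, a defining transcription factor of blood cells, gave -0.22 and did not pass the test.

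Humoral immunity genes gave 1 rise and 3 falls among 13, where 17.2% of all features rose and 20.7% fell. PGRP-LA, a peptidoglycan recognition protein gene, fell by 1.16 ± 0.30, from 1.43 ± 0.59 to 0.26 ± 0.40. Tep3, of the complement-like thioester proteins, fell by 0.92, and its ages overlapped. The call of Tep3 was lost on the csn51 arrays of these ages alone (-0.94) and with only the Cy5 arrays (-0.38). The gene key, a component of the Imd pathway, fell by 0.39. PGRP-LE rose by 0.40. The Toll pathway genes Tl and Myd88 gave -0.49 and -0.27 and did not pass the test.

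Cytochrome P450 genes, whose enzymes oxidise hormones, lipids and foreign compounds, fell in 16 of 29 cases and rose in 2. The shares over all features were 20.7% and 17.2%. The list median was between 0.08 and 0.46 on the 60 h arrays and between -0.49 and -0.28 on the 96 h arrays. Cyp4g1, which makes cuticular hydrocarbons in oenocytes, stood at 0.71, 0.73, 0.16 and 0.78 at 60 h and at -0.48, -0.95, -0.95, -0.69 and -1.16 at 96 h. It went from above wild type on all arrays to below it on all arrays, a change of -1.44 ± 0.15 (adjusted p = 1.82e-09). Cyp4d2 fell by 1.52 and Cyp6a13 by 1.43, the latter from wild-type level. Cyp4d8, at -2.29, had the largest fall of the list, and Cyp305a1 rose by 1.80.

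Glutathione transferases, which attach glutathione to reactive compounds, gave more falls than rises. Of 9 glutathione transferase genes 5 fell and 1 rose, among them GstE7, which fell by 1.31, and GstZ1, which rose by 1.70 with values on 2 of the 96 h arrays. GstE12 and GstE13 fell by 0.54 and 0.57, and on both the 96 h array of replicate 1 stood apart at 0.09 and 0.02. Of 14 UDP-glycosyltransferase and esterase genes 6 fell and 3 rose, against 20.7% and 17.2% of all features. The esterase gene alpha-Est2 fell by 2.55 ± 0.28, from 0.08 ± 0.36 to -2.45 ± 0.20, and Ugt316A1 fell by 1.01 ± 0.09. Ugt50B3 rose by 2.09, also with values on 2 of the 96 h arrays. Of 12 genes of the oxidative stress response 3 fell and 0 rose, and their median change of -0.02 took the other sign in 5 of 21 alternatives. These were Sod3, a secreted superoxide dismutase, by 1.83 ± 0.21, Gtpx by 0.88 and Gclm, the modifier subunit of the enzyme that starts glutathione synthesis, by 0.59. The call of Gclm was lost without replicate 3 at 60 h (-0.50) and with scaled arrays.

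Digestive and metabolic genes fell more often than they rose. Of 9 midgut genes, with a median change of -0.75, 7 fell and 0 rose, against 20.7% and 17.2% of all features. The amylase gene Amy-p fell by 2.26 ± 0.45 (adjusted p = 8.91e-05). On its 60 h arrays the Cy3 pair was at 0.19 and 0.15 and the Cy5 pair at -1.59 and -1.54, and all 96 h arrays were lower still, at -2.98, -2.79, -2.77, -3.22 and -3.16. Amy-p has a near-identical neighbouring copy in the fly genome, which the array may not tell apart. Npc2f, of a sterol-binding protein family, fell by 1.81.

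Glycolysis and the tricarboxylic acid cycle gave 9 falls and 0 rises among 17 genes, against 20.7% and 17.2% of all features. Tpi, triosephosphate isomerase, stood at -0.15, 0.01, -0.10 and -0.21 at 60 h and at -1.85, -1.29, -1.38, -1.06 and -1.26 at 96 h. The fall of 1.25 ± 0.11 (adjusted p = 3.90e-11) began from wild-type level. Gapdh1 fell by 1.23 ± 0.12 from 0.04 ± 0.13, and Pgi, glucose-6-phosphate isomerase, by 1.30 ± 0.16 from -0.01 ± 0.03. Pglym78, phosphoglycerate mutase, fell by 1.05, and Glyp, glycogen phosphorylase, by 1.12. Between 72 and 96 h 8 of the 17 fell, and 1 rose, whereas between 60 and 72 h 1 fell.

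Lipid genes fell in 9 of 19 cases and rose in 2, against 20.7% and 17.2% of all features. FASN1, fatty acid synthase, went from -0.37, -1.27, -0.35 and -0.04 to -2.23, -1.48, -1.62, -1.97 and -1.73, a fall of 1.31 ± 0.31 (adjusted p = 0.000821). AcCoAS, which makes acetyl-CoA from acetate, fell by 1.28 ± 0.31. The lipid droplet proteins Lsd-1 and Lsd-2 fell by 0.60 and 0.58, and GLaz, a lipocalin, rose by 1.20. Of 3 measured fat body genes Fbp2 fell, the lipid transfer particle gene Apoltp rose by 0.64 ± 0.12, and apolpp, the main lipoprotein, gave -0.52 and did not pass the test.

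Most autophagy genes fell. Of 16 genes 12 fell and 1 rose, against 20.7% and 17.2% of all features. The falls in the list ranged from 3 to 13 over the alternatives. At 60 h 11 of the 16 were above wild type and 0 below it, and at 96 h 5 were above and 4 below. Atg9, the membrane protein of the pathway, stood at 2.16, 1.41, 1.20 and 1.08 at 60 h and at 0.01, -0.05, -0.09, -0.16 and -0.42 at 96 h, a fall of 1.58 ± 0.25 (adjusted p = 2.92e-06). Atg8a, the protein that is coupled to autophagic membranes, went from 1.79 ± 0.48 to 0.20 ± 0.38, a fall of 1.56 ± 0.36. Both thus came from well above wild type to near it. Atg4a fell by 0.76, and Atg14 rose by 1.18 on 3 of the 96 h arrays.

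Genes of some tissue marker lists moved as well, and their part in the changes given above was not tested. Of 13 muscle genes 9 fell and 0 rose, and the list median went from between 0.00 and 0.44 on the 60 h arrays to between -0.56 and -0.21 on the 96 h arrays. Over the alternatives 2 to 14 fell, array entries being counted where each was fitted on its own. Mlc2, a myosin light chain, stood at 0.53, 0.63, 0.24 and 0.26 and then at -0.84, -0.71, -0.76, -0.38 and -0.64, a fall of 1.07 ± 0.15 (adjusted p = 4.92e-07). The Z-disc gene Zasp52 fell by 0.65 and Obsc, a giant sarcomere protein, by 0.81. Of 13 genes of neurons and glia 1 rose and 1 fell, against 17.2% and 20.7% of all features. Their median change was 0.03, and the neuronal marker elav gave 0.09. The rise of Gad1, 1.11 ± 0.38, dropped to 0.39 (adjusted p = 0.311) without replicate 3 at 96 h, and its call was also lost without replicate 5 at 96 h (0.99) or replicate 3 at 60 h (0.92). A fall of 0.33 in nrv2 was lost without replicate 1 (-0.28) or replicate 2 (-0.29) at 60 h. Of 6 germline and testis genes mia rose by 0.45, and gcl and Mst98Ca fell by 1.30 and 0.36. The change of gcl was -0.72 without replicate 3 at 60 h. The call of mia was lost without replicate 1 at 60 h (0.39), and that of Mst98Ca without any of 6 of the 9 arrays (-0.37 to -0.28). None of 22 salivary gland glue and intermoult genes in the list was measured. The table holds ratios only, so the presence of these tissues in the RNA could not be read from levels.

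Of 15 genes of the DNA damage response 7 rose and 1 fell, against 17.2% and 20.7% of all features. At 60 h 5 of the 15 were called above wild type and 2 below it, against 24.1% and 22.9% of all features. The 3 genes of the complex that binds double-strand breaks were among those that rose and were above wild type at 60 h already. mre11 went from 1.02, 0.68, 0.50 and 0.78 to 1.35, 2.17, 1.82, 2.77 and 2.47, a rise of 1.35 ± 0.27 (adjusted p = 0.000109) without overlap. nbs rose by 0.46, from 0.85 ± 0.10 to 1.30 ± 0.42, and rad50 also by 0.46. The tumour suppressor gene p53 rose by 0.44 ± 0.18 (adjusted p = 0.0431), and hay, a helicase of nucleotide excision repair, by 0.38. The ages overlapped for nbs, hay and p53, and the call of hay was lost without replicate 2 at 96 h (0.26). With scaled arrays the calls of nbs (0.28) and hay (0.30) were lost, and on the csn51 arrays of these ages alone too. Without replicate 1 at 96 h 4 of the 15 rose.

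Cell cycle and replication genes were mixed, with 10 rises and 6 falls among 35, against 17.2% and 20.7% of all features. Cdc45, of the replicative helicase, went from -0.98, -0.96, -0.61 and -0.66 to 0.13, 0.06, -0.16, 0.17 and 0.32, a rise of 0.89 ± 0.16 (adjusted p = 2.30e-05) from below wild type to its level. Rbf, a retinoblastoma family gene, rose by 0.86, and both of its array entries gave that value. E2f2 rose by 1.04 and RfC4 by 1.23. Among genes of mitosis, the kinesin gene ncd fell by 0.83 and the cyclin gene CycB by 1.18, and the condensin genes glu and SMC2 fell by 0.58 and 0.46. At 60 h 24 of the 35 were below wild type and 1 above it, and at 96 h 19 were below and 4 above.

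**Figure D4:**
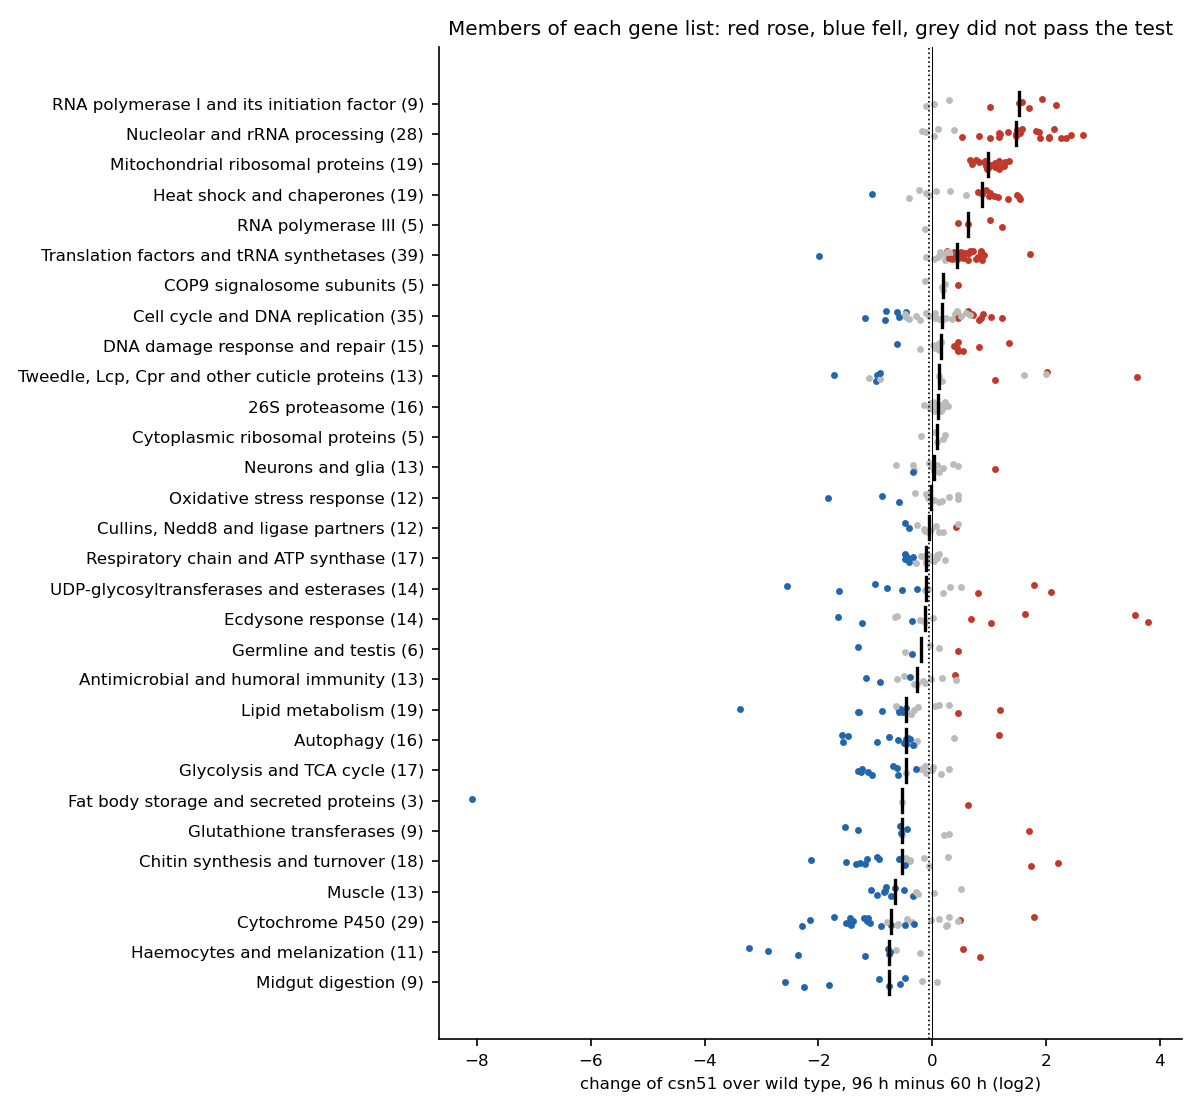
Change of the log2 ratio from 60 to 96 h (horizontal axis) for every tested gene of each list, with red points that rose, blue points that fell, grey points that did not pass the test, a bar at the list median and the number of genes in parentheses. All 19 mitochondrial ribosomal protein genes lie to the right of 0, midgut genes have the lowest median with that of haemocytes and melanization, at -0.75, and the dotted line marks the median of all features, -0.06.

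The 72 h arrays of csn51 split the interval. Between 60 and 72 h 548 features rose and 629 fell, 8.86% and 10.2% of 6182 tested and 19.0% together. Between 72 and 96 h 760 rose and 725 fell, 12.8% and 12.2% of 5931 and 25.0% together. The fitted 72 h ratio lay between those of 60 and 96 h for 1686 of the 2244 features called over the whole interval. These features were chosen for a difference between 60 and 96 h, and no such count was made over all features. Of the features that rose from 60 to 96 h, 369 had risen by 72 h and 36 had fallen, while 470 rose after 72 h. Of those that fell, 337 had fallen by 72 h and 507 fell after it. Each part shares arrays with the whole interval, so agreement in direction is partly built in and is not read as a result. All calls between 60 and 72 h, 1177 in number, went to 765 without replicate 1 at 60 h and to 699 without replicate 3 at 72 h.

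Named genes differed in their course. Nop56 rose in both intervals, by 1.11 (adjusted p = 0.0132) and 1.34 (adjusted p = 0.00108). mRpL19 changed by 0.31 up to 72 h (adjusted p = 0.144) and rose by 1.05 after it (adjusted p = 1.92e-07). Aduk fell by 2.48 up to 72 h (adjusted p = 1.55e-05), with a change of -0.69 after it that did not pass the test. TwdlL and Cht5 went down and up again. TwdlL fell by 5.31 and then rose by 8.91, and Cht5 fell by 1.58 and then rose by 3.79. The chitin gene Idgf6, by contrast, changed by -1.18 and then by -0.34. mre11 rose by 1.17 up to 72 h, with 0.17 after it.

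The change with age in csn51 was set against csn53, the other allele of this kind in the series. The comparison of the 2 changes had 0 calls among 5931 features (0.00%), with 382 at an unadjusted limma p under 0.05 and a smallest adjusted p of 0.0787. That p belonged to PPO1 and CG6928. PPO1 changed by -3.21 ± 0.28 in csn51 and by -1.64 ± 0.26 in csn53, a difference of -1.57 ± 0.38, and CG6928 by 3.68 ± 0.38 and 1.55 ± 0.34, a difference of 2.13 ± 0.51. Without replicate 1 or replicate 3 of csn51 at 96 h, 27 and 11 features passed, and 5 or fewer without any other array. The SE of the difference was 0.42 for Nop56 and 0.19 for mRpL19. With array weights 155 features passed. The median change of the mitochondrial ribosomal protein list was 0.98 in csn51 and 0.85 in csn53, that of the nucleolar list 1.48 and 1.11, and that of autophagy -0.46 and -0.40. The arrays of both genotypes may share wild-type RNA, so these values are given side by side only.

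Against csn4null, larvae with a null allele of CSN4, the change in csn51 was higher for 112 and lower for 160 of 5735 features, which is 1.95% and 2.79% and 4.74% in all. With scaled arrays 17 were higher and 27 lower, and with array weights 456 and 457. CtsK2 fell by 2.66 in csn51 and changed by -1.0 ± 0.28 in csn4null, a difference of -1.65 ± 0.37 (adjusted p = 0.00904). Among genes of the nucleolus, Nop56 and ais rose further in csn51. Nop56 changed by 2.45 and by 0.81 ± 0.35 in csn4null (difference 1.64 ± 0.47, adjusted p = 0.0314), and ais by 2.36 and 0.49 ± 0.37 (difference 1.86 ± 0.49, adjusted p = 0.0200). CG1785 differed by 1.32, mRpL19 by 0.74 and CysRS by 0.68, each higher in csn51. FASN1, which fell in csn51, had a change of 0.31 ± 0.35 in csn4null, a difference of -1.62 ± 0.47 (adjusted p = 0.0361).

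The largest called differences from csn4null were ranked among named genes with a value on at least 3 arrays of each of the 4 groups. They belonged mostly to genes without a name beyond their number. CG12713 (2.91), CG1213 (2.61) and CG6928 (2.31) were higher in csn51 by the log2 differences given, and CG32444 (-3.39), CG13360 (-3.25) and Srg2 (-2.97) lower. The call of CG1213 was lost without replicate 5 of csn51 at 96 h (1.65), that of CG6928 without replicate 3 of csn4null at 60 h (1.83), and that of CG32444 without replicate 4 of csn51 at 96 h (-2.49) or replicate 3 of csn4null at 60 h (-3.20). With scaled arrays the calls of CG1213 (2.01), CG6928 (1.22), CG32444 (-1.74), CG13360 (-2.48) and Srg2 (-2.18) were lost. On the arrays of the groups compared alone those of CG12713, CG1213, CG6928 and CG32444 were lost. The call of Srg2 was lost without any of 10 of the arrays, with values between -3.06 and -2.37. CG13360 was below wild type at 60 h on all 3 arrays with a value and lower still at 96 h, between -5.95 and -5.45. Without replicate 3 of csn4null at 60 h, 102 features in all passed, and without replicate 1 of csn4null or of csn51 at 60 h 125 and 174. PPO1 and PPO2 changed in csn4null by -3.22 ± 0.32 and -3.18 ± 0.29, with differences from csn51 of 0.01 ± 0.42 and 0.29 ± 0.38 that did not pass the test.

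**Figure D5:**
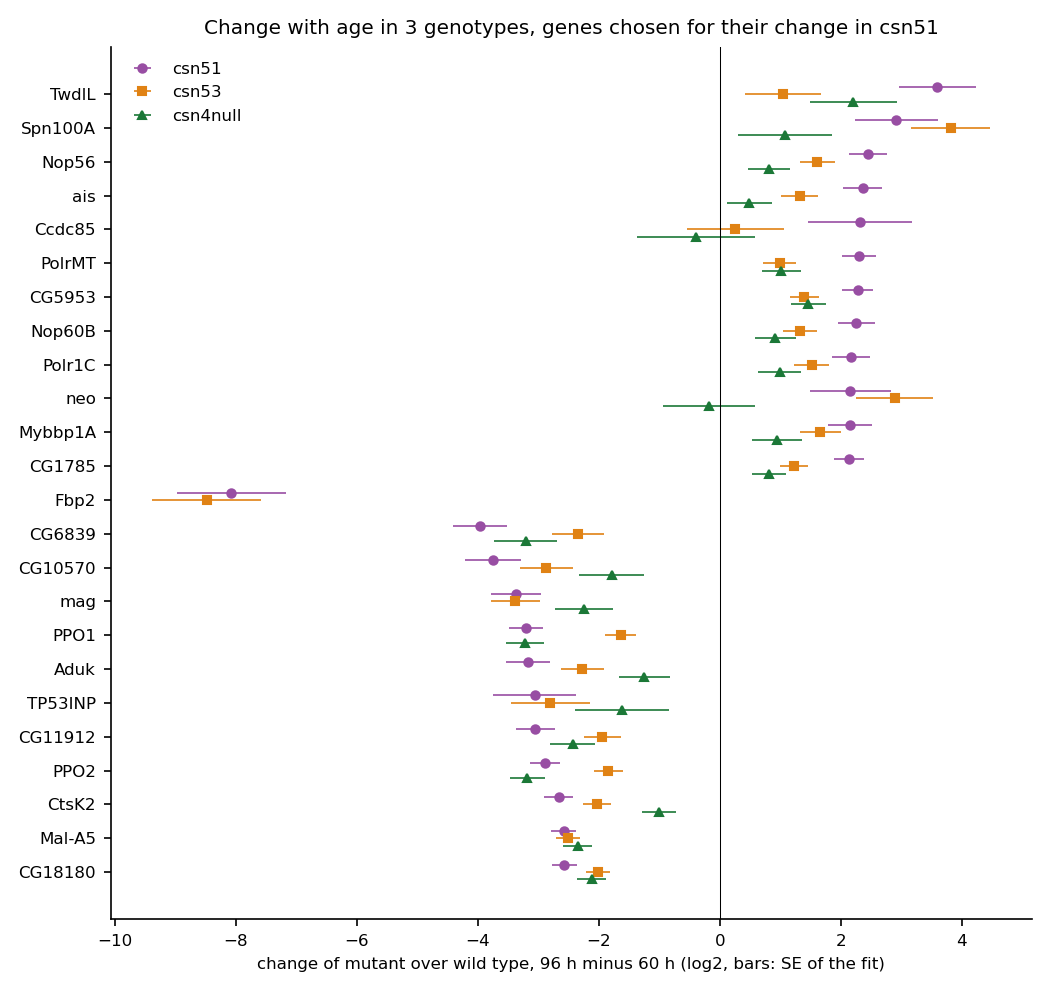
Change of the log2 ratio of mutant over wild type from 60 to 96 h (horizontal axis, bars are the SE of the fit) in csn51, csn53 and csn4null for the genes with the largest changes in csn51. Since the genes were chosen for csn51, its values tend to lie furthest from 0; Nop56 is at 2.45, 1.61 and 0.81, and PPO1 at -3.21, -1.64 and -3.22.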

How the data were processed

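The table of values is the one the authors deposited, with 6621 entries and 51 arrays, taken as log2 ratios of the 2 dye channels. Background correction, normalization and the log base are not given in the sources used here. Total RNA was extracted with TriZol, per the labels' protocols, and the arrays carry dye reversals. All signs were turned to mutant over wild type, because the deposited values of CSN4 were positive in csn4null. CSN5 in csn5null was the other ground, but its values are not given here.

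Symbols came from the platform annotation: 5072 entries had 1 symbol, of which 4993 matched the RefSeq table of Release 6 plus ISO1 MT, 176 had several and 1373 none. Without 32 controls and 28 empty entries, and with the entries of a gene averaged (324 genes), 6187 features were left, 4698 of them named.

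Each feature was fitted with limma 3.58.1 in R 4.3.3 (lmFit and eBayes, prior df 3.34, prior SD 0.235), with 12 groups and a dye term over all arrays. P-values were adjusted by Benjamini-Hochberg over everything tested in a comparison, called under 0.05, and a feature needed 2 arrays in each group. The arrays are biological replicates per the labels. The fit was tested on simulated data with noise independent between arrays. Of 50 changes of each size on the log2 scale, it called 24 of size 0.5, 41 of size 1, 45 of size 2 and 49 of size 3. Of its 165 calls 6 were false (3.64%). Far fewer features were changed there than were called in the data, and shared wild-type RNA was not simulated.

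Named genes are CSN5 and CSN4, and the 12 largest rises and falls with a value on all 9 arrays and no overlap of ages. Added to these were up to 3 members per gene list by adjusted p, and the 3 largest called differences each way from csn4null. The last needed a value on at least 3 arrays of each group compared. Other genes of the lists were named after their values were seen, as were the lists of RNA polymerases and nucleolar genes. The comparison and all lists were chosen with earlier results of these data known, and lists are described by counts and medians with no test of their own.

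Alternatives were no dye term, centred or scaled arrays, each entry on its own, array weights, a replicate block, other sets of arrays and each array left out in turn. A further alternative left out 3 csn5null arrays held as doubtful, which stay in the main fit. They are replicate 5 at 60 h and replicate 3 at 72 and at 96 h. Same-numbered arrays of 60 and 96 h had residual correlations of -0.178, -0.0995, -0.0609 and -0.132, none above 0.1. Those of other numbers lay between -0.1633 and 0.2205. With so few arrays these values cannot exclude pairing. No label says that a number marks a shared source across ages, so the numbers were not taken as pairs. Figures were drawn with matplotlib 3.10.9.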

Additional observations from a re-analysis of the deposited data

Results flagged for a closer look

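Among the named genes, 190 sets of arrays of an age were examined for an array far from the rest of its group, and 15 had one. Chance gives about 1 in 20 groups. At 96 h replicate 1 was the array set apart for Ccdc85 (9.81, others 0.22 to 1.02), Fbp2 (-6.76, others -8.68 to -8.14), alien (0.35, others -0.36 to -0.25), GstE13 (0.02, others -0.49 to -0.38) and GstE12 (0.09, others -0.48 to -0.38). Replicate 4 at 96 h was set apart for PPO2 (-0.65), Cul3 (0.45) and CCT2 (0.34), and replicate 5 for Atg4a (-0.51). At 60 h replicate 1 was set apart for CSN5 (-0.66, others -0.42 to -0.38) and SkpA (-0.24), replicate 2 for PPO2 (1.95), replicate 3 for Cyp4g1 (0.16) and ncd (-0.25), and replicate 4 for Mst98Ca (0.33).

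Among the named genes 194 differences in the change with age were examined, those of csn51 from csn4null and from csn53 together. Of these, 17 passed an adjusted limma p of 0.05 over all features, all of them differences from csn4null. Over all features 4.74% differed from csn4null and 0.00% from csn53. Higher in csn51, on the log2 scale, were Nop56 (1.64), ais (1.86), CG1785 (1.32), mRpL19 (0.74), CysRS (0.68), CG12713 (2.91), CG1213 (2.61) and CG6928 (2.31). Lower in csn51 were Aduk (-1.93), CtsK2 (-1.65), Npc2f (-1.58), Cyp4d2 (-1.26), Ugt316A1 (-0.63), FASN1 (-1.62), CG32444 (-3.39), CG13360 (-3.25) and Srg2 (-2.97). Some of these genes were named because of that difference, and the values are given as a description.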

How the results depend on the processing

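For csn51 96 h minus 60 h, 2244 calls became 1377 with scaled arrays, 902 with only the Cy5 arrays, and 1830 to 2213 with an array left out. On its own arrays with no dye term there were 1671, and without 3 csn5null arrays 2573. A fixed replicate block on its own arrays gave 781 calls and a random replicate block, with a correlation of 0.0171, gave 2272. No label says that a number marks a shared source across ages, so whether the numbers pair the arrays is open. What the lower count means was not tested. For csn51 72 h minus 60 h, 1177 calls became 741 with scaled arrays and 2064 with array weights, and 699 to 1258 with an array left out. For csn51 96 h minus 72 h, 1485 became 885 with scaled arrays and 856 on its own arrays, and 1237 to 1595 with an array left out. Calls against wild type ranged from 2127 to 2689 at 60 h and from 2936 to 3107 at 96 h with an array left out. The csn51 age change minus csn53 age change had 0 calls, 155 with array weights, 4 without 3 csn5null arrays and 0 to 27 with an array left out. The csn51 age change minus csn4null age change had 272, and 44 with scaled arrays, 913 with array weights, 729 without 3 csn5null arrays and 102 to 352 with an array left out. Of 2182 values of named genes recomputed, 2048 kept direction and call, 133 lost the call and 1 turned, Gad1, at -0.48 with only the Cy3 arrays. The list medians kept their sign in all 21 alternatives except cullins (2 turned), cuticle proteins (7), oxidative stress (5), cell cycle (1) and neurons and glia (3). Calls within lists moved too. Falls ranged from 8 to 17 for cytochrome P450, 2 to 7 for midgut, 3 to 8 for haemocyte and 3 to 11 for lipid genes. Rises of nucleolar genes ranged from 15 to 24. The cause of these shifts was not tested. Signal over background is not in the table, 255 features lacked values at 96 h and were not tested, and precision is limited by how many arrays there are.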
